A study of Mus musculus with 6 samples.

Results

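Osteoclasts are the bone-resorbing cells of the macrophage lineage, and the 10 genes described here encode steps of their formation. They are Csf1r, Tnfrsf11a, Oscar, Traf6, Nfatc1, Dcstamp, Ocstamp, Atp6v0d2, Acp5 and Ctsk. The genes were taken by symbol from the deposited TPM table (TPM is an abundance scaled for gene length and depth), and all 10 were found among its 25124 genes. Of the 10, 5 reached the level set for testing, 1 TPM or more in 3 or more libraries, and 5 did not.

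The cells were RAW264.7, a mouse macrophage-like line that forms osteoclast-like cells when given RANK ligand. The M2 group (3 libraries) received IL-4 at 10 ng/ml to polarize it toward alternative activation, and the M0 group (3 libraries) received no IL-4. Both groups were a control line that had been given a Cas9 plasmid carrying no guide RNA, made as the counterpart of an E4BP4 knockout, and both were grown in 25 mM glucose and 10% serum. Poly(A) transcripts were sequenced, starting from 200 ng total RNA per sample. The labels name no RANK ligand treatment, do not give the length of IL-4 exposure and do not say whether the line was 1 clone.

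Macrophage colony-stimulating factor acts on the receptor CSF1R to keep osteoclast precursors alive and dividing. RANK ligand then binds RANK, encoded by Tnfrsf11a, and the adaptor TRAF6 passes the signal to NF-kappaB and AP-1. With calcium signals from ITAM-coupled receptors such as OSCAR, this raises NFATc1, the transcription factor that switches on the genes of fusion (Dcstamp, Ocstamp, Atp6v0d2) and of bone resorption (Acp5, Ctsk) in mouse osteoclasts. IL-4 is known to restrain osteoclast formation from mouse precursors.

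Whole reads could be worked back from TPM, and totalled 18139902 to 19511192 in the M2 libraries and 15615639 to 18110568 in the M0 libraries. On log2(TPM + 1) the lowest Pearson r within a group was 0.991 and the highest across groups 0.975. M2 replicate 3 stood apart by gene length. Its log2 difference from the mean of the other M2 libraries had a median of 0.07 among tested genes with models of up to 1925 bases and -0.24 among those of 3487 bases and more. The labels mark all 3 M0 libraries, and 0 M2 libraries, as re-analysed. A batch tied to that mark cannot be told apart from the IL-4 treatment. The labels do not describe the replicates as separate cultures, and each p-value therefore reflects sample-to-sample spread that could be purely technical.

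The receptor genes Csf1r and Tnfrsf11a and the signalling genes Traf6 and Nfatc1 were expressed in both groups. Dcstamp was low but covered in both, and the other 5 genes held 0 to 9 reads per library. Tnfrsf11a rose in M2, Nfatc1 fell, and Csf1r, Traf6 and Dcstamp did not pass the test. With limma on log2(TPM + 1), 2 of the 5 tested genes had an adjusted p under 0.05, Tnfrsf11a upward and Nfatc1 downward. Over all 11202 tested genes 43.7% changed, 20.1% upward and 23.7% downward, so the share among these genes lay near the background. The groups did not overlap for 3 of the 5, against 55.9% of all tested genes. These are bulk samples, in which fewer cells of a type and less RNA per cell cannot be told apart.

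**Figure D1:**
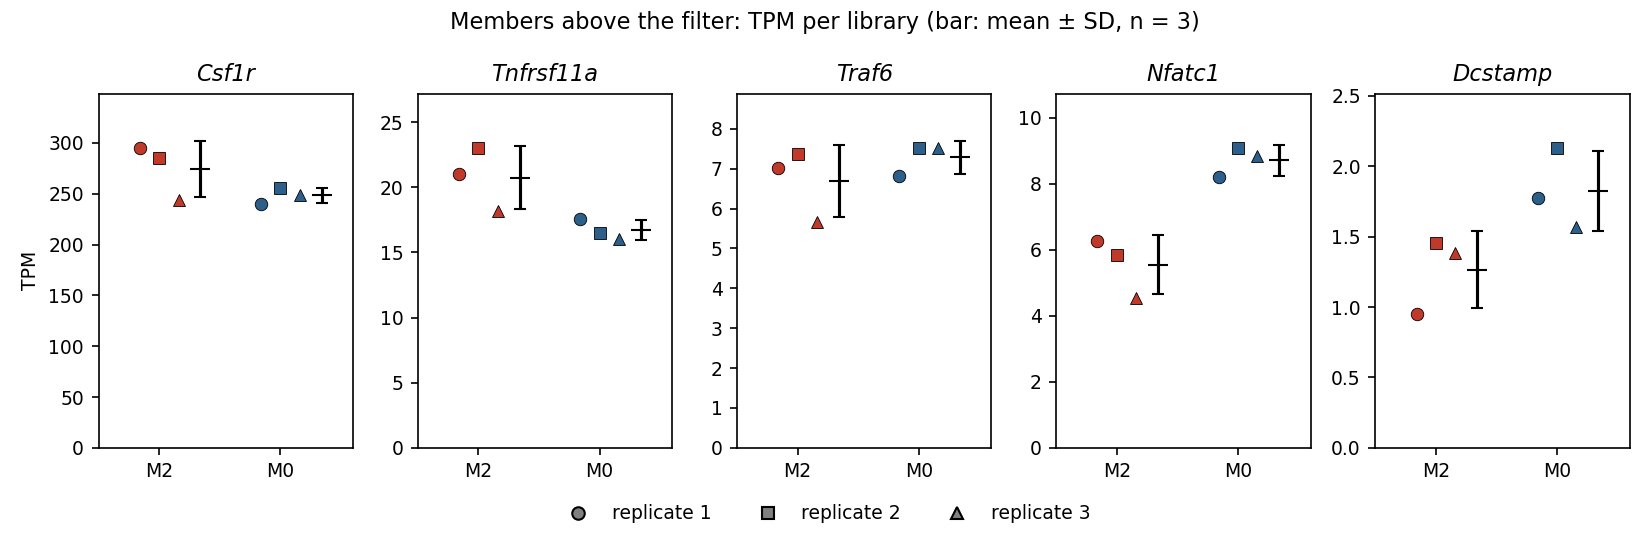
TPM of the 5 genes above the filter in each library, with M2 in red and M0 in blue, a symbol for each replicate number and the mean ± SD beside the points (n = 3). Nfatc1 lay between 4.54 and 6.26 TPM in M2 and between 8.19 and 9.09 TPM in M0, and M2 replicate 3 was the lowest M2 library for every gene shown except Dcstamp.

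Csf1r, the receptor of macrophage colony-stimulating factor, was the most abundant of the 10 genes. It had 295, 285 and 243 TPM in M2 replicates 1, 2 and 3, against 240.3, 256 and 249 TPM in M0 replicates 1, 2 and 3. The groups overlapped, because M2 replicate 3 lay among the M0 libraries while the other M2 libraries lay above them. The means were 275 ± 27.5 TPM in M2 and 248 ± 7.70 TPM in M0 (SD, n = 3 each), and the gene ranked 321st by mean TPM in M2 and 331st in M0. Its log2 fold change was 0.14 (SE 0.0763) and did not pass (adjusted p = 0.168). Without M2 replicate 3 it was 0.22 and passed (adjusted p = 0.00605, within a range of 0.00495 to 0.425 over 15 alternatives).

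Tnfrsf11a, which encodes RANK, rose in M2. Its values were 21.0, 23.1 and 18.2 TPM in M2 replicates 1, 2 and 3, against 17.6, 16.5 and 16.1 TPM in M0 replicates 1, 2 and 3. Every M2 library lay above every M0 library, and the gap between M2 replicate 3 and M0 replicate 1 was the narrowest. On average M2 had 20.8 ± 2.44 TPM and M0 16.7 ± 0.789 TPM (SD, n = 3 each), a ratio of 1.24. The log2 fold change was 0.29 (SE 0.0910, adjusted p = 0.0299). The call ended without M2 replicate 1 (adjusted p = 0.0751), M2 replicate 2 (0.0933), M0 replicate 2 (0.0867) or M0 replicate 3 (0.105), and without the filter on low values (0.0666), within a range of 0.000248 to 0.105 over 15 alternatives.

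Traf6, the adaptor and ubiquitin ligase below RANK, had 7.01, 7.38 and 5.68 TPM in M2 replicates 1, 2 and 3, against 6.81, 7.53 and 7.52 TPM in M0 replicates 1, 2 and 3. The groups overlapped, and M2 replicate 3 was the lowest library. The log2 fold change was -0.11 (SE 0.105, adjusted p = 0.407), and without M2 replicate 3 it was -0.01. Traf6 passed in 0 of 15 alternatives, with adjusted p between 0.243 and 0.884.

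Nfatc1, the transcription factor at the centre of the programme, fell in M2. It had 6.26, 5.85 and 4.54 TPM in M2 replicates 1, 2 and 3, resting on 418, 379 and 340 reads. The M0 libraries had 8.19, 9.09 and 8.84 TPM in replicates 1, 2 and 3, from 555, 593 and 504 reads. Every M2 library lay below every M0 library. The means were 5.55 ± 0.899 TPM in M2 and 8.71 ± 0.465 TPM in M0 (SD, n = 3 each), so that M2 held 0.637 times the M0 level. The log2 fold change was -0.58 (SE 0.113, adjusted p = 0.00351). Nfatc1 passed under all 15 alternatives, with adjusted p between 2.61e-05 and 0.0179 and a log2 fold change between -0.66 and -0.44, the value without M2 replicate 3 being -0.46.

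Dcstamp encodes a membrane protein needed for osteoclast fusion in mice. Its values were 0.954, 1.46 and 1.39 TPM in M2 replicates 1, 2 and 3, from 27, 40 and 44 reads. In M0 replicates 1, 2 and 3 it had 1.78, 2.13 and 1.57 TPM, from 51, 59 and 38 reads. All M2 libraries lay below all M0 libraries, but the log2 fold change of -0.32 (SE 0.130) missed the threshold (adjusted p = 0.0726). Dcstamp passed without the variance trend (adjusted p = 0.0499) and with limma-voom on recovered reads plus a length correction (0.0254), within a range of 0.0254 to 0.23 over 14 alternatives, and with a TPM minimum of 5 the gene was not tested.

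By mean TPM the order in M2 was Csf1r, Tnfrsf11a, Traf6, Nfatc1 and Dcstamp. In M0 Nfatc1 came before Traf6. The ranges of Traf6 (5.68 to 7.38 TPM) and Nfatc1 (4.54 to 6.26 TPM) overlapped in M2, while in M0 those of Nfatc1 (8.19 to 9.09 TPM) and Traf6 (6.81 to 7.53 TPM) did not. No other neighbours among these 5 genes overlapped in either group.

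**Figure D2:**
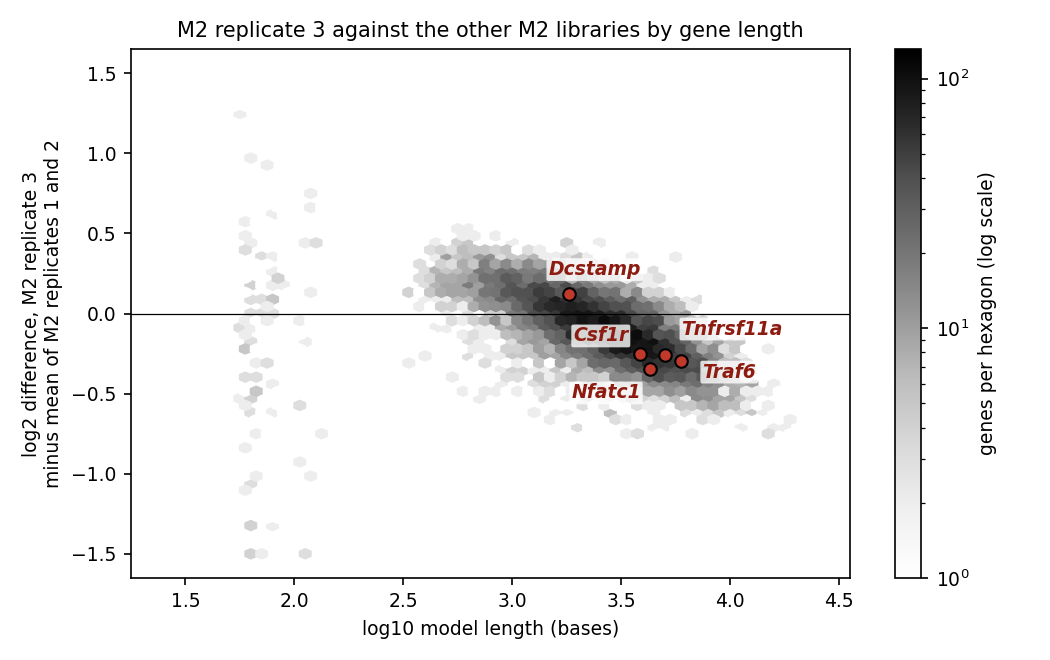
Log2 difference of M2 replicate 3 from the mean of M2 replicates 1 and 2 (vertical axis, drawn no further than 1.5 in size) against log10 model length (horizontal axis) for the 11202 tested genes, with the 5 tested osteoclast genes in red. Csf1r, Tnfrsf11a, Traf6 and Nfatc1 have long models and sit between -0.35 and -0.25, and Dcstamp, with a short one, at 0.12.

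Among these 5 genes, the 4 with long models lay lower in M2 replicate 3 than in the other M2 libraries. Their log2 differences were -0.25 for Csf1r, -0.26 for Tnfrsf11a, -0.30 for Traf6 and -0.35 for Nfatc1. The models have 3851, 5010, 5976 and 4303 bases, in that order. What part of each difference belongs to the length trend of that library was not tested. Dcstamp, at 1825 bases, differed by 0.12. An alternative added after the data were seen fitted limma-voom to the recovered reads with each library corrected for its trend on length. It is set here beside limma-voom on the same reads without the correction. The log2 fold change of Csf1r was 0.19 with the correction (adjusted p = 0.00495) and 0.15 without (0.0847). That of Tnfrsf11a was 0.40 with the correction (adjusted p = 0.000248) and 0.31 without (0.00802). Nfatc1 had -0.59 with the correction (adjusted p = 2.61e-05) and -0.66 without (0.000359). Dcstamp had -0.54 in both fits, with an adjusted p of 0.0254 with the correction and 0.0574 without, and Traf6 had -0.01 with it (0.875) and -0.13 without (0.25). Csf1r and Dcstamp passed only in the corrected fit of this pair, Tnfrsf11a and Nfatc1 in both, and Traf6 in neither.

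**Figure D3:**
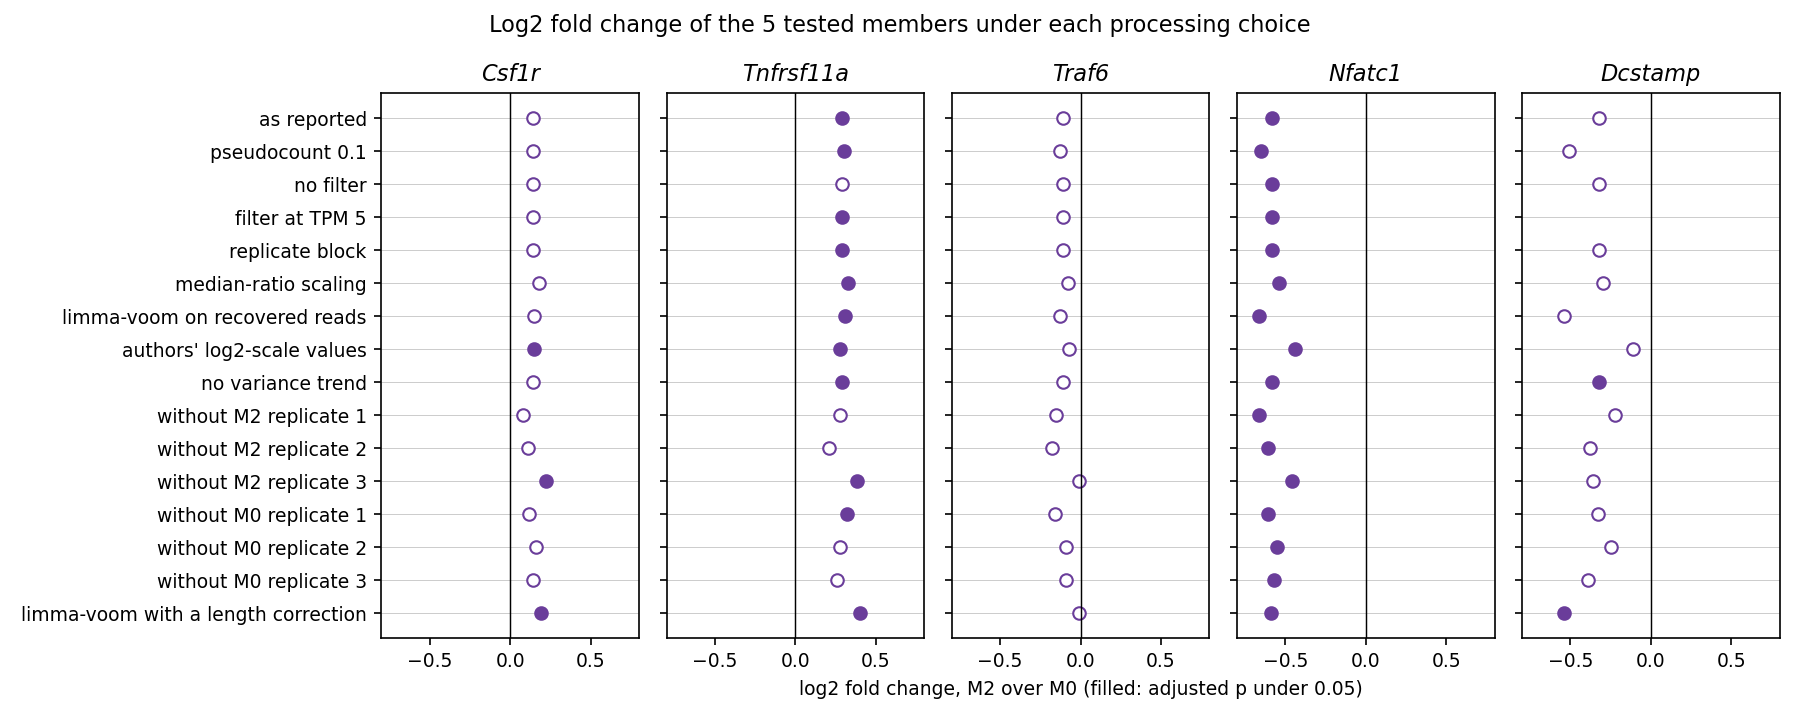
Log2 fold change of M2 over M0 (horizontal axes) for the 5 tested genes as reported and under 15 alternatives (rows), filled where the adjusted p was under 0.05. Nfatc1 is filled in every row, Tnfrsf11a in the reported fit and 10 alternatives, Csf1r in 3 alternatives, Dcstamp in 2 and Traf6 in 0.

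The authors' deposited table gives log2 fold changes, positive where M2 is higher, of -0.61 for Nfatc1 (adjusted p = 2.37e-06), 0.35 for Tnfrsf11a (0.000698) and 0.18 for Csf1r (0.0249). In the same deposited table the authors list -0.42 for Dcstamp (adjusted p = 0.279) and -0.09 for Traf6 (0.545). For Nfatc1, Dcstamp and Traf6 that table names another transcript model than the TPM table, with 4585, 1989 and 6173 bases in place of 4303, 1825 and 5976.

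The other 5 genes were below the filter and were not tested with the rest. Together they held 7 to 15 reads per M2 library and 11 to 12 per M0 library. Acp5 encodes tartrate-resistant acid phosphatase, the enzyme used to stain osteoclasts. It had 2, 1 and 1 reads in M2 replicates 1, 2 and 3, against 0 in each M0 library, where a count of 0 allows up to 3 reads. In this gene 3 reads correspond to 0.128 to 0.148 TPM in M2 libraries and 0.141 to 0.168 TPM in M0 libraries, so every library was at or under the floor and no fold is given. Without the filter on low values limma listed a log2 fold change of 0.09 at an adjusted p of 0.0494 for Acp5, which rests on those 4 reads against 0.

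Ctsk encodes cathepsin K, the collagen-cleaving protease of osteoclasts. It had 1, 1 and 5 reads in M2 replicates 1, 2 and 3 and 1, 1 and 2 reads in M0 replicates 1, 2 and 3. The groups overlapped, and the M2 to M0 ratio of depth-scaled reads was 1.61 (exact binomial 95% interval 0.409 to 7.5, which covers counting error only). Atp6v0d2, a subunit of the proton pump that is also needed for fusion in mice, had 0, 0 and 1 reads in M2 replicates 1, 2 and 3, against 3, 3 and 0 in M0 replicates 1, 2 and 3. All 6 libraries were at or under 3 reads for Atp6v0d2.

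Oscar, a collagen receptor that signals through the ITAM adaptor FcR-gamma, had 0, 1 and 0 reads in M2 replicates 1, 2 and 3, against 2, 4 and 0 in M0 replicates 1, 2 and 3. The ratio was 0.153 (exact binomial 95% interval 0.00333 to 1.26). Ocstamp, a fusion protein related to DC-STAMP, was the most covered of the 5, with 4, 7 and 8 reads in M2 replicates 1, 2 and 3 and 6, 3 and 9 in M0 replicates 1, 2 and 3. Its ratio was 0.972 (exact binomial 95% interval 0.483 to 1.96). For these 4 genes no difference between M2 and M0 was detectable at this depth. Without the filter their adjusted p in limma lay at 0.701 for Ctsk, 0.282 for Atp6v0d2, 0.332 for Oscar and 0.952 for Ocstamp.

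**Figure D4:**
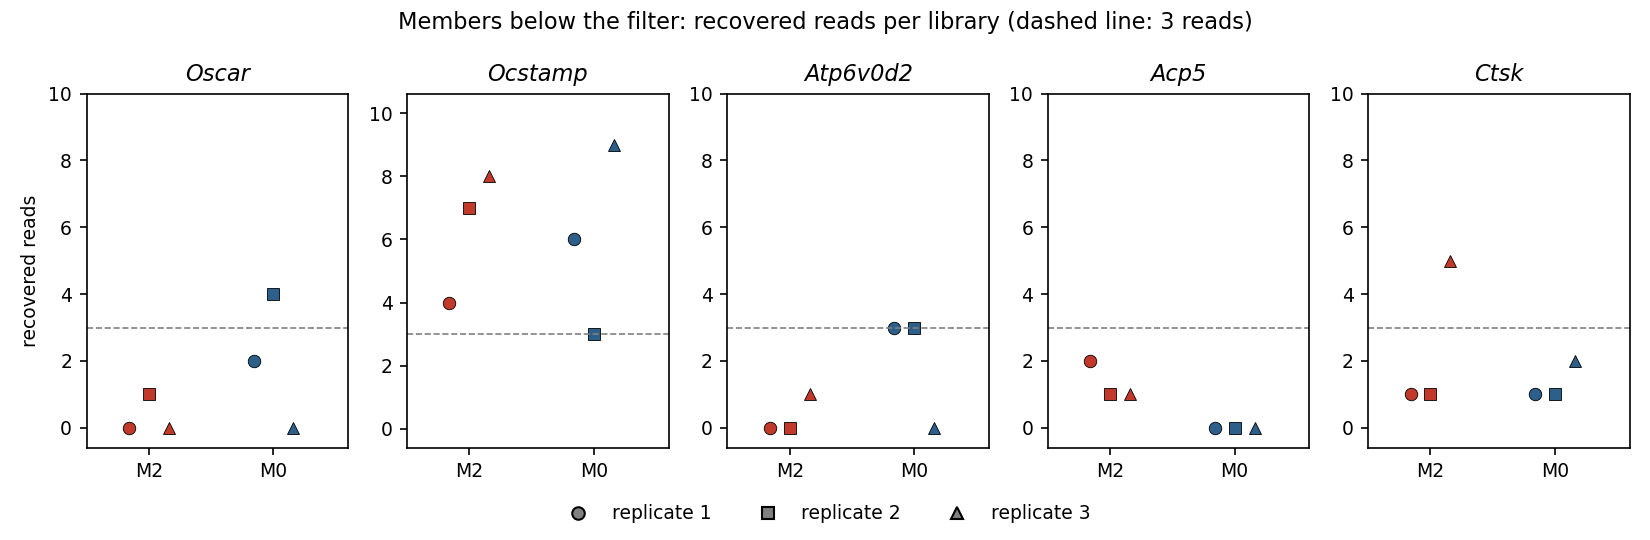
Recovered reads per library for the 5 genes below the filter, M2 in red and M0 in blue, with a dashed line at 3 reads. Ocstamp reaches 8 reads in M2 and 9 in M0, and no other gene shown exceeds 5.

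Promoter windows of 300 bases, from 250 before to 50 after the start site, were matched in RefSeq (GRCm38.p6) for 5 of the 10 genes. They are shown for Tnfrsf11a, the gene that rose, and for Acp5 and Ctsk, the resorption genes near the floor, at chr1:105780473-105780772 (plus strand), chr9:22130549-22130848 (minus strand) and chr3:95498960-95499259 (plus strand). Each starts at the model used in the TPM table (RefSeq lists 2 further Acp5 start sites, not shown), and capitals mark matches to the STAT6-type site (TTC and GAA around 4 bases of any kind), the NFAT core GGAAA or its reverse complement TTTCC, and the AP-1 site TGANTCA.
Tnfrsf11a: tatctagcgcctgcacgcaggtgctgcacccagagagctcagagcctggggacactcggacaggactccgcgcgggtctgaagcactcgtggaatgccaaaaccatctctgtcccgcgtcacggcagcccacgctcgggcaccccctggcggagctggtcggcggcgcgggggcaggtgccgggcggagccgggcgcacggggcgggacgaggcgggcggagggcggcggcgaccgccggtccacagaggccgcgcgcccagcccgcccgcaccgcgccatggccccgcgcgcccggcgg
Acp5: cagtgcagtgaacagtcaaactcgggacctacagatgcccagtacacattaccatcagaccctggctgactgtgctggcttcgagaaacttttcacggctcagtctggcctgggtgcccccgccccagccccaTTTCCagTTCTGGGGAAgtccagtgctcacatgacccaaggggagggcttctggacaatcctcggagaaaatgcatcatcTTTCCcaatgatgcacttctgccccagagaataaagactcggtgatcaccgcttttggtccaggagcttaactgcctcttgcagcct
Ctsk: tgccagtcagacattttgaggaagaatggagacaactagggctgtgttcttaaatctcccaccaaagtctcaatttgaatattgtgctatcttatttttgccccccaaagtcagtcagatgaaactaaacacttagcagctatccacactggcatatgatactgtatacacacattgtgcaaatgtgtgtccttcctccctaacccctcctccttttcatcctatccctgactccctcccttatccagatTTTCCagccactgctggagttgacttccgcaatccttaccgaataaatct

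The Tnfrsf11a window was 76.7% G and C with 43 CpG steps, and that of Traf6, whose gene was also expressed, 59.3% with 19. Among genes near the floor, the values were 54.7% and 7 for Acp5, 47.3% and 2 for Oscar, and 43.7% and 2 for Ctsk. The median over all 32851 windows was 52.7% and 7, close to the Acp5 window. No window was matched for Csf1r, Nfatc1 and Dcstamp, which passed the filter, or for Ocstamp and Atp6v0d2. A link between base content and expression was not tested. Both strands were searched, and neither the Tnfrsf11a nor the Traf6 window held any of the motifs. The NFAT core stood once in the Ctsk window, 2 times in that of Acp5 and 4 times in that of Oscar, and 61.3% of all windows held it at least once. Acp5 also had 1 STAT6-type match, TTCTGGGGAA, which 6.95% of windows hold in some form. The AP-1 site, present in 7.81% of windows, was in none of the 5, and the MITF-type box TCANGTG, present in 14.3%, stood once each in the Acp5 and Oscar windows. These are matches of letters, not binding sites.

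On mm10, the build in the submitters' processing notes, the Csf1r model is NM_001037859, chromosome 18, 61105572 to 61131139, plus strand. Nfatc1 is measured on NM_001164111, chromosome 18, 80606205 to 80708173, minus strand. The Tnfrsf11a model is NM_009399, chromosome 1, 105780723 to 105847981, plus strand, that of Traf6 is NM_001303273, chromosome 2, 101678420 to 101701668, plus strand, and that of Dcstamp is NM_001289508, chromosome 15, 39745930 to 39760938, plus strand. Acp5 is measured on NM_007388, chromosome 9, 22126727 to 22130598, minus strand, and Ctsk on NM_007802, chromosome 3, 95499210 to 95509387, plus strand. For Atp6v0d2 the model is NM_175406, chromosome 4, 19876838 to 19922566, for Oscar NM_175632, chromosome 7, 3609815 to 3616157, and for Ocstamp NM_029021, chromosome 2, 165395450 to 165400394, all on the minus strand. In the RefSeq table of GRCm38, the lncRNA Gm52342 overlaps Nfatc1, and the lncRNA Gm52352 and the microRNA gene Mir6983 overlap Csf1r. Whether counting used strand is unknown from the sources at hand. Reads of these overlapping genes may therefore be counted with Nfatc1 and Csf1r.

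The wider pathway was described by 8 lists, with counts by the same fit and the median log2 fold change of the tested members. Over all tested genes that median was -0.03, with 20.1% higher and 23.7% lower in M2. No difference between a list and all tested genes was tested. Ligands were scarce. Tnfsf11, which encodes RANK ligand, and Tnfrsf11b, the decoy receptor osteoprotegerin, had 0 reads in all 6 libraries, where each count of 0 allows up to 3 reads. Il34, the second ligand of CSF1R, had 1 read over the M2 libraries and 0 over the M0 libraries. Csf1, macrophage colony-stimulating factor, had 2.05 ± 0.274 TPM in M2 and 2.45 ± 0.199 TPM in M0 (SD, n = 3 each) and did not pass (adjusted p = 0.198).

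Of 19 tested RANK signalling genes 3 rose and 4 fell, and 12 did not pass. The median was 0.02, and between -0.07 and 0.05 under the alternatives. Relb, the partner subunit of the alternative NF-kappaB pathway, had 6.38 ± 0.274 TPM in M2 and 14.9 ± 0.501 TPM in M0 (SD, n = 3 each; log2 fold change -1.11, SE 0.0753, adjusted p = 1.39e-05). Nfkb2, which encodes the p100 precursor of that pathway, fell to 19.8 TPM in M2, against 37.6 TPM in M0. Nfkb1, the p105 and p50 gene, rose to 101 TPM in M2, against 63.0 TPM in M0, and Rela fell to 30.6 TPM in M2, against 42.6 TPM in M0. Each of these 4 passed under all 15 alternatives. The list's count of 7 was 4 without M0 replicate 2 or M0 replicate 3, 8 with limma-voom on recovered reads, and 13 when that fit also had the length correction.

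Of 17 tested genes of ITAM and calcium signalling 1 rose, 8 fell and 8 did not pass, with a median of -0.27, where 20.1% of all tested genes rose and 23.7% fell. The 1 that rose was Trem2, a receptor that signals through DAP12, with 403 TPM in M2 and 339 TPM in M0 (adjusted p = 0.00716). Lcp2, the adaptor SLP-76, fell to 27.1 ± 1.85 TPM in M2, against 38.5 ± 1.63 TPM in M0 (SD, n = 3 each; log2 fold change -0.49, adjusted p = 0.000617). Syk, the kinase that binds ITAMs, fell to 11.03 TPM in M2, against 16.6 TPM in M0, and Tec, another tyrosine kinase, to 38.5 TPM in M2, against 47.7 TPM in M0. Ppp3ca, a calcineurin catalytic subunit that activates NFAT proteins, fell to 32.2 TPM in M2, against 40.3 TPM in M0. The ITAM adaptor Tyrobp (DAP12) had 578 TPM in M2 and 684 TPM in M0 and fell by 0.24 on the log2 scale (adjusted p = 0.0352). That call held under only 5 of 15 alternatives (adjusted p 0.00285 to 0.148) and ended without any of M2 replicates 1 and 2 and M0 replicates 1, 2 and 3. Fcer1g, the FcR-gamma partner of OSCAR, had 800 TPM in M2 and 965 TPM in M0 and did not pass (adjusted p = 0.0574).

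Among 15 tested transcription factors known to act for osteoclast formation, 6 were called higher in M2 and 4 lower. Their median was 0.04, but 0.21 without M2 replicate 3, -0.01 without M2 replicate 1 and 0.16 with limma-voom and the length correction. The lowest adjusted p of the list was that of Myc (9.07e-07), which rose to 29.8 TPM in M2, against 6.425 TPM in M0. Next came Tfec, a gene of the MITF family, at 6.56e-06. Tfec rose to 3.56 ± 0.551 TPM in M2, against 0.102 ± 0.0146 TPM in M0 (SD, n = 3 each), from 304 and 8 reads. Jund fell to 95.4 to 106 TPM in M2 libraries, against 143 to 168 TPM in M0 libraries, and Fos, the AP-1 subunit that osteoclast formation needs in mice, to 4.77 TPM in M2, against 7.59 TPM in M0 (log2 fold change -0.58, adjusted p = 0.0027). Spi1 (PU.1) had 182 TPM in M2 and 201 TPM in M0 and did not pass (adjusted p = 0.0802).

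Among 13 genes listed as restraining osteoclast formation 6 rose and 4 fell. Whether each of them restrains it was not tested, and for Socs1 and Socs3 the label is uncertain. The median of 0.21 became -0.01 with a TPM minimum of 5, which left 11 of the genes. Irf8, a repressor of NFATc1 in mouse precursors, fell to 72.2 ± 3.02 TPM in M2, against 115 ± 4.67 TPM in M0 (SD, n = 3 each; log2 fold change -0.67, adjusted p = 4.67e-05). Socs1, Id1, Id2 and Id3 rose by between 1.07 and 4.51 on the log2 scale. Bcl6 fell by 0.25 on that scale (adjusted p = 0.0342), a call that ended without M2 replicate 1, M0 replicate 2 or M0 replicate 3, with the replicate block and without the filter (0.00482 to 0.129 over 15 alternatives). Without M2 replicate 1, M0 replicate 2 or M0 replicate 3 the count of 10 was 6, with 5 that rose and 1 that fell, and with the replicate block 5 rose and 2 fell.

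Of 20 tested fusion and adhesion genes 3 rose, 10 fell and 7 did not pass, beside 20.1% higher and 23.7% lower among all tested genes. Their median was -0.21, and -0.13 with a TPM minimum of 5 and -0.11 without a filter. Ptk2b, the kinase PYK2 of the osteoclast sealing zone, fell to 29.7 ± 3.68 TPM in M2, against 60.9 ± 2.28 TPM in M0 (SD, n = 3 each; log2 fold change -1.02, adjusted p = 4.91e-05). Cd44 rose to 142 TPM in M2, against 87.5 TPM in M0, and Itgav, the alpha-V integrin, to 22.8 TPM in M2, against 11.9 TPM in M0. Itgb3, its beta-3 partner in osteoclasts, was below the filter and held 90 reads over the M2 libraries and 17 over the M0 libraries. Cd81, a tetraspanin, fell to 256 TPM in M2, against 344 TPM in M0.

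**Figure D5:**
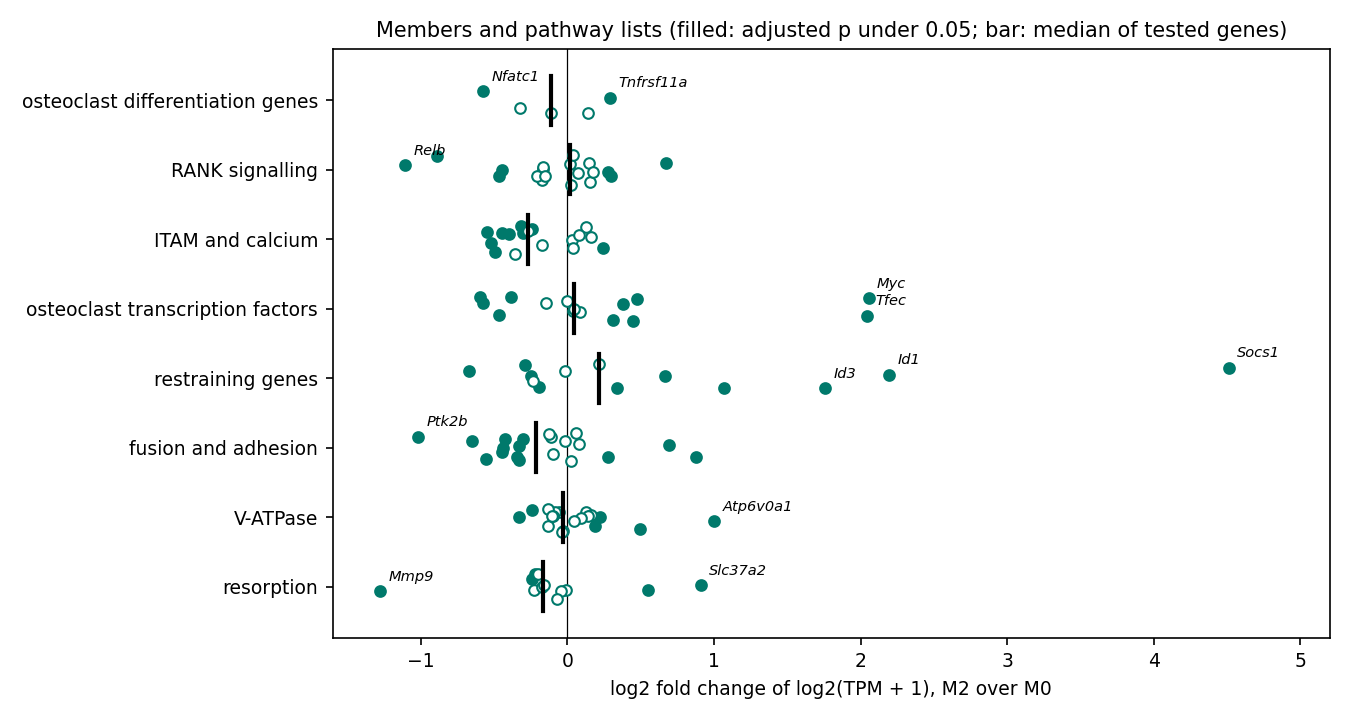
Log2 fold change on log2(TPM + 1) of the 5 tested osteoclast differentiation genes (top row) and of the tested genes of 7 pathway lists, filled where the adjusted p was under 0.05, with a bar at each median and points spread vertically only for legibility. Medians run from -0.27 for ITAM and calcium genes to 0.21 for the genes listed as restraining, and Socs1 is the point at 4.51.

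Of 12 tested resorption genes 2 rose and 3 fell. Their median was -0.16, and -0.08 without M2 replicate 3. Mmp9, the gelatinase of osteoclasts and macrophages, fell to 14.2 ± 0.846 TPM in M2, against 35.8 ± 0.721 TPM in M0 (SD, n = 3 each; log2 fold change -1.28, adjusted p = 3.39e-06). Slc37a2, a sugar-phosphate transporter, rose to 167 TPM in M2, against 88.2 TPM in M0, and Car2, carbonic anhydrase II, to 32.3 TPM in M2, against 21.7 TPM in M0. Ctsb fell to 732 TPM in M2, against 854 TPM in M0 (adjusted p = 0.00983), a call that ended without M0 replicate 2, with median-ratio scaling, with limma-voom plus the length correction and on the authors' log2-scale values (0.00772 to 0.084 over 15 alternatives). Clcn7, the chloride transporter of the resorbing membrane, had 15.1 TPM in M2 and 17.8 TPM in M0 and did not pass (adjusted p = 0.0866). The count of 5 was 3 without M0 replicate 2.

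The proton pump around Atp6v0d2 was expressed. Of 19 tested V-ATPase genes 4 rose and 2 fell, with a median of -0.03 that became 0.01 with median-ratio scaling and 0.07 on the authors' log2-scale values. Atp6v0d1, the widely expressed d subunit to which Atp6v0d2 is the osteoclast-enriched alternative, fell to 61.1 ± 1.14 TPM in M2, against 77.2 ± 0.962 TPM in M0 (SD, n = 3 each; log2 fold change -0.33, adjusted p = 0.000898). Of the a subunits, Atp6v0a1 rose to 92.5 TPM in M2, against 45.5 TPM in M0, and Tcirg1, the a3 subunit that osteoclasts need for acid secretion, had 116 TPM in M2 and 137 TPM in M0. Tcirg1 fell by 0.24 on the log2 scale (adjusted p = 0.0324). That call ended without M0 replicate 1, 2 or 3, without the filter and without the variance trend (0.00509 to 0.0871 over 15 alternatives). Atp6v1b2 rose to 286 TPM in M2, against 202 TPM in M0. The count of 6 was 3 without M0 replicate 1, 2 or 3 and 10 without M2 replicate 3.

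Markers checked the label of the line. All 10 macrophage markers were tested, and 4 rose and 4 fell, beside 20.1% higher and 23.7% lower among all tested genes. Mertk, Adgre1, Fcgr1 and Fcgr3 rose, Cd14, Cx3cr1, Ptprc and Itgam fell, and Lyz2 and Cd68 did not pass. The summed level of the 10 was 2297 to 2397 TPM in M2 libraries and 2746 to 3030 TPM in M0 libraries. Within that sum Cd14 had a mean of 310.4 TPM in M2 and 637.5 TPM in M0. Of 5 osteoclast markers outside the 10 genes, Mmp9 and Car2 passed the filter, and Calcr, the calcitonin receptor, had 6 reads over the M2 libraries and 5 over the M0 libraries. The 9 stromal and osteoblast markers held 10 to 20 reads per M2 library and 5 to 28 per M0 library, and the 7 lymphoid markers 5 to 8 and 3 to 8, with Cd3g and Cd8a at 0 in all 6. The 7 dendritic cell markers summed to 0.970 to 2.03 TPM in M2 libraries and 1.74 to 2.09 TPM in M0 libraries. The part of any other cell type in these results was not tested.

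The search for genes that followed Nfatc1 and Tnfrsf11a left out predicted (Gm), Rik, microRNA, small nucleolar RNA and mitochondrially encoded genes by name. Of the tested genes that remained, Soga1 and Kif21b (Pearson r 0.9993 each) and Synj1 (0.9985) followed Nfatc1 most closely. Each r was taken on log2(TPM + 1) over the 6 libraries, and 172 of the remaining genes exceeded 0.99. Kif21b had 19.5 TPM in M2 and 45.5 TPM in M0. For Tnfrsf11a the closest were Eri2 (0.9941), Rbm28 (0.9928) and Brms1l (0.9916), with 5 of the remaining genes above 0.99. Eri2 had 10.7 TPM in M2 and 7.72 TPM in M0. These r values describe 6 libraries that share the group difference and the length trend of M2 replicate 3.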

How the data were processed

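Both deposited tables entered. TPM by library, with 1 transcript model per gene, is what the authors' first table lists per the file headers. The second holds values per library that were read as log2-scale from their range, since the deposited header names no transform, and the authors' log2 fold changes, p-values and adjusted p-values. The submitters' processing notes name STAR 2.7.5a, HOMER 4.11.1, DESeq2 and mm10 without a role for each. The annotation, the strand setting and the treatment of multiply mapped reads are unknown from these sources.

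No raw counts were used as deposited, so the count model planned for that case gave way to limma 3.58.1 (R 4.3.3) on log2(TPM + 1), two-sided, by group, with a variance trend and Benjamini-Hochberg adjustment over the 11202 genes at 1 TPM or more in 3 or more libraries. The log2(TPM + 1) scale understates changes of low genes. Fold changes are M2 over M0. TPM times model length came in whole steps, which gave reads: in each library 100.0% of the values that could be checked were whole to within 0.1 read. Chi-square over degrees of freedom for pairs of libraries of a group was 2.18 to 19.65, so no library was a duplicate. The code of the fit was also run on simulated data, as a check of the code only. That run cannot vouch for the calls reported here, because simulated libraries need not share the spread of the real ones. Python 3.11.15, pandas 2.3.3, scipy 1.17.1 and matplotlib 3.10.9 made tables, intervals and plots.

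The 10 genes, the lists and the tests were chosen with earlier results of these data known. Named were all 10 genes, the genes with the lowest adjusted p in each list (at most 4), genes fixed for their role, and the 3 closest patterns of the 2 genes with the lowest adjusted p; some list genes are not reported here. Alternatives were another pseudocount, filters, a replicate block, scaling, limma-voom on recovered reads, the authors' values, no variance trend, each library left out and, added after the data were seen, a length correction within the fit to recovered reads.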

Additional observations from a re-analysis of the deposited data

How the results depend on the processing

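Nfatc1 and Traf6 kept their direction and side of the threshold under every alternative run, and 3556 to 6500 genes changed in all, against 4899 as reported. The count of osteoclast genes that changed, 2 as reported, was 2 with limma-voom on recovered reads, 4 when that fit also had the length correction, and 1 to 3 with a library left out. Leaving out a library moved the log2 fold change of Csf1r between 0.08 and 0.22 and that of Tnfrsf11a between 0.21 and 0.38. Csf1r passed on the authors' log2-scale values (0.15, adjusted p = 0.047) and with limma-voom plus the length correction (0.19). Tnfrsf11a did not pass without the filter (0.29, adjusted p = 0.0666), where Nfatc1 and Acp5 made up the count of 2. Dcstamp passed without the variance trend (-0.32) and with limma-voom plus the length correction (-0.54), where limma-voom alone also gave -0.54. List counts with a library left out were 4 to 9 for RANK signalling (8 with limma-voom, 13 with limma-voom plus the length correction). They were 6 to 11 for the genes listed as restraining, 3 to 6 for resorption and 3 to 10 for the V-ATPase (3 without the variance trend). The causes were not tested. For M2 and M0 libraries with the same replicate number, deviations from the group means correlated at -0.03, 0.21 and 0.03. For those with different numbers, r lay between -0.20 and 0.17. With 3 libraries per group these values cannot decide whether the replicates were paired. With the replicate block 4870 genes changed, the osteoclast genes that passed were again Nfatc1 (-0.58, adjusted p = 0.0062) and Tnfrsf11a (0.29, adjusted p = 0.0248), and no call of the 5 tested genes moved. At 0 to 9 reads per library, the power to detect a change in Acp5, Ctsk, Atp6v0d2, Oscar or Ocstamp was limited.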

Other observations

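The MITF family of transcription factors, which acts on osteoclast and lysosome genes, was split. Tfec had 3.83, 2.93 and 3.93 TPM in M2 replicates 1, 2 and 3, against 0.108, 0.112 and 0.0850 TPM in M0 replicates 1, 2 and 3. Mitf had 20.2, 21.2 and 17.6 TPM in M2 replicates 1, 2 and 3, against 12.6, 15.5 and 14.3 TPM in M0 replicates 1, 2 and 3 (limma adjusted p = 0.00547). Tfe3 lay at 15.9, 15.6 and 13.5 TPM in M2 replicates 1, 2 and 3, against 21.5, 20.5 and 21.4 TPM in M0 replicates 1, 2 and 3 (adjusted p = 0.00157). Tfeb had 13.1, 11.7 and 13.7 TPM in M2 replicates 1, 2 and 3, against 17.3, 16.5 and 16.98 TPM in M0 replicates 1, 2 and 3 (adjusted p = 0.00415). The groups did not overlap for any of the 4, and each passed in the same direction under every alternative in which it was tested. Over all 11202 tested genes, the groups did not overlap for 55.9% and 43.7% were called. The family was picked with the results known, and no test of it as a set was run. Tfec and Mitf were higher in M2, and Tfe3 and Tfeb lower.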
